A study of Mus musculus with 8 samples.

Results

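The 9 genes described here encode core factors of nonsense-mediated mRNA decay (NMD). They are *Upf1*, *Upf2*, *Upf3a*, *Upf3b*, *Smg1*, *Smg5*, *Smg6*, *Smg8* and *Smg9*, chosen by name and required to be listed in all 8 tables of the series. All 9 met this condition, out of 15962 genes that did, and all 9 were among the 13968 genes tested. NMD degrades mRNAs on which the ribosome stops at a premature stop codon, as well as some normal mRNAs with features such as an exon junction downstream of the stop codon. The helicase UPF1 binds the mRNA and is phosphorylated by the SMG1 kinase when UPF2 and UPF3 connect it to an exon junction complex. Phosphorylated UPF1 then recruits SMG6, which cuts the mRNA, and SMG5, which takes part in the dephosphorylation that resets UPF1. Oocytes transcribe almost nothing during meiotic maturation, so their mRNA levels reflect storage, tail length and decay.

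The series holds 8 Smart-seq2 libraries of mouse oocytes, 2 from each of 4 groups and with 15 oocytes in each library. GV oocytes are arrested at the germinal vesicle stage and MII oocytes had matured in culture, and both groups were uninjected. *Btg4*wt and *Btg4*tm oocytes are MII oocytes that had received RNA coding for Myc-tagged BTG4, a maternal adaptor that brings the CCR4-NOT deadenylase to mRNAs, either as wild type or with a threonine and 2 serines replaced by alanine. All 4 groups came from superovulated ICR (Crl:CD1) females whose age is not given in the labels. The paper's methods give an age for superovulated females, without saying whether it covers these libraries. All carry the oocyte's own *Btg4* gene, and no knockout is among these groups. The paper reports that both injected forms seemed to lower endogenous BTG4 protein, a point it leaves to be clarified. The endogenous protein may therefore differ between injected and uninjected groups, and it was not measured here. The labels do not say whether the 2 libraries of a group came from separate animals or cultures, so the p-values below measure the spread between these libraries, which may be technical. The labels mention 3 samples per group, and the 2 of each group given here were analysed.

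Expression was measured as TPM, in which the counts of a gene are divided by its length and given as a share of the library. TPM do not keep the sequencing depth, which is therefore unknown. The values below are scaled TPM, for which each library was divided by its median ratio to the geometric mean of all 8, a factor between 0.948 and 1.11. Replicate libraries correlated at r = 0.982 to 0.987 across genes. The 10 oocyte markers examined (*Zp1*, *Zp2*, *Zp3*, *Gdf9* and others) were all tested, and their summed level lay between 36420 and 50760 scaled TPM. Of 15 markers of cumulus and granulosa cells, 5 were listed in all 8 tables with a summed level between 36.1 and 50.6 scaled TPM. *Amh*, *Amhr2*, *Foxl2*, *Inhba*, *Has2*, *Ptx3* and *Tnfaip6* were listed in no table, *Fshr* and *Cyp11a1* in the injection tables only, and *Hsd17b1* in the control tables only. None of the 3 blood markers was listed. Because reverse transcription began at the poly(A) tail, a change in tail length and a change in the number of mRNA molecules cannot be told apart, nor can a lower share and a larger pool of other RNAs.

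Positions of the genes are given on GRCm38 (GENCODE M21). *Upf1* lies at chr8:70331525-70353278 on the minus strand and *Upf3a* at chr8:13785615-13799193 on the plus strand. *Smg1* (chr7:118131308-118243670, minus) and *Smg9* (chr7:24399619-24422778, plus) share a chromosome, as do *Smg6* (chr11:74925823-75164448, plus) and *Smg8* (chr11:87077732-87086774, minus). *Upf2* lies at chr2:5951469-6056703 (plus), *Smg5* at chr3:88336260-88362338 (plus) and the X-linked *Upf3b* at chrX:37091678-37110322 (minus). Their main transcripts range from 2057 bases for *Upf3a* and 2242 bases for *Smg9* to 15557 bases in 63 exons for *Smg1*, whereas *Smg8* has 4 exons. GC content runs from 42.5% in *Upf3b* to 60.3% in *Smg9*. The reads were counted without regard to strand, and 1.47% of the exonic bases of *Upf1* overlap *Cers1* and *Gdf1*, while 2.88% of those of *Smg6* overlap *Srr* and *Gm12333*. In *Upf3a*, 2.44% of 50-base stretches also occur in other genes. *Smg1*, *Smg5* and *Smg6* each have 1 annotated transcript that GENCODE itself classes as an NMD target, and gene-level TPM cannot separate it.

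The end of the 3′ UTR is shown for 5 genes, the 4 whose level differed most between GV and MII oocytes and the most abundant one, because these libraries were primed from the tail that is added there. The sequences are those of the GRCm38 reference in the sense of the mRNA, 5′ to 3′. The capitals mark the last AATAAA of the annotated 3′ UTR, a hexamer of the kind that directs cleavage and polyadenylation. In *Smg1* another AATAAA lies directly upstream of it, and the site used in these oocytes was not measured.
*Upf1*, chr8:70331526-70331555, minus strand: ctttttgtcaccAATAAAacatgaacaaac
*Upf3b*, chrX:37091689-37091718, minus strand: tgtaatgctgtcAATAAAtttccacttcgt
*Smg1*, chr7:118131318-118131347, minus strand: caaaaaaataaaAATAAAggttcaagtctt
*Smg9*, chr7:24422743-24422772, plus strand: tctgatggttcgAATAAAtgtggtcacaga
*Smg8*, chr11:87077754-87077783, minus strand: tattgtaaaatcAATAAAagtttgttctag
All 9 genes have AATAAA in the last 100 bases of the annotated 3′ UTR, on the mRNA strand. Of 10558 tested genes with an annotated 3′ UTR of that length, 81.9% have AATAAA or ATTAAA there. TTTTAT and TTTTAAT, 2 forms of the cytoplasmic polyadenylation element that oocytes use to lengthen tails during maturation, occur in this window in 20% of those genes and in none of the 9. Absence from this window says only that these letters are not in it.

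The 9 mRNAs covered a wide range of levels. *Smg8*, which encodes a regulatory partner of the SMG1 kinase, was the most abundant in each of the 4 groups. It had 86.2 and 104 scaled TPM in the GV libraries, above the levels of 88.1% of the genes tested. *Upf3b* and *Upf1* followed in every group. *Upf3b* exceeded *Upf1* in both libraries against both in GV and *Btg4*tm oocytes, while their libraries overlapped in MII and *Btg4*wt oocytes. *Upf2* and then *Smg6* came next in each group, with no overlap between these neighbours. Among the low genes the order was not stable: *Smg6*, *Upf3a*, *Smg9* and *Smg1* overlapped with their neighbours in GV oocytes, as did *Smg1* with *Upf3a* and *Smg9* with *Smg5* in *Btg4*wt oocytes and *Smg1* with *Smg9* in *Btg4*tm oocytes. *Smg5* was at or near the bottom everywhere. It reached 1 TPM as deposited in 2 libraries only, 1 of MII and 1 of *Btg4*wt oocytes, and so entered the test through these. *Smg9* reached it in 6 libraries and failed it in both MII libraries.

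**Figure D1:**
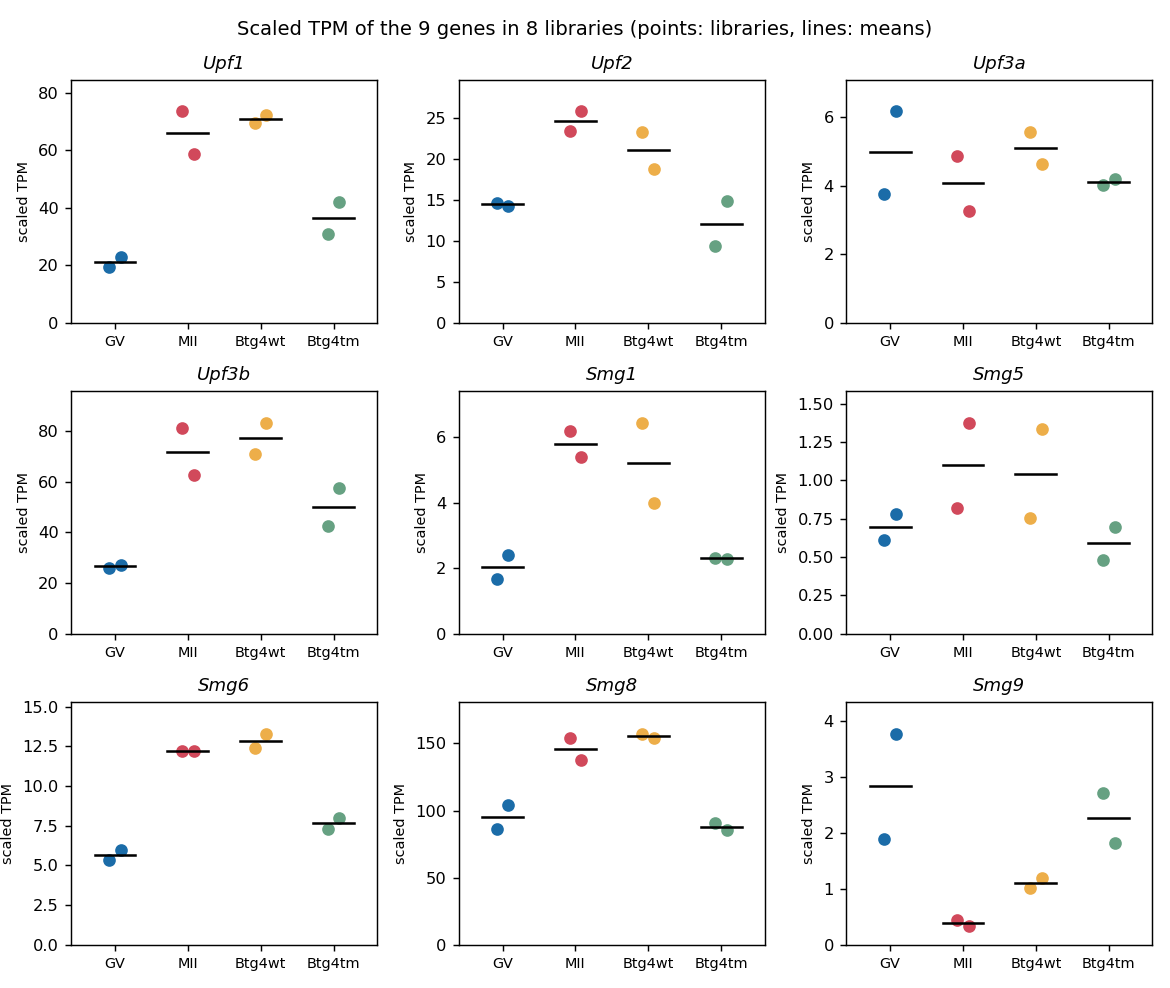
Scaled TPM (vertical axes, each from 0) of the 9 genes in GV, MII, *Btg4*wt and *Btg4*tm oocytes; points are the 2 libraries of a group and lines their means. Both MII libraries lie above both GV libraries for 7 genes, as in 41.1% of all genes tested. Both *Btg4*tm libraries lie below both *Btg4*wt libraries for 8, as in 36.7%. *Smg9* goes the opposite way in both comparisons. Both counts include *Smg5*, which entered the test only through an MII and a *Btg4*wt library.

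The first comparison asked how these mRNAs differ between GV and MII oocytes of the uninjected groups. *Upf1*, *Upf3b* and *Smg1* were higher in MII oocytes and *Smg9* was lower. A call required an adjusted p-value under 0.05 from limma with Benjamini-Hochberg adjustment over all genes tested, and an absolute log2 fold change over 1 on the log2(scaled TPM + 1) scale, which understates the change of low genes. By this rule 3 of the 9 genes were called higher, where 12.5% of all genes tested were, and 1 was called lower, where 24% were. With the adjusted p-value alone, 6 were higher and 1 lower, against 29.8% and 32.8% of all genes. The median log2 fold change of the 9 was 0.73, and that of all genes was -0.0017. In 7 of them both MII libraries lay above both GV libraries, as in 41.1% of all genes, and in 1 both lay below, as in 41.6%. The 7 include *Smg5*, which entered the test only through an MII and a *Btg4*wt library. The counts under other settings that follow are given without the share of all genes. Leaving out 1 library at a time left 5 or 6 members higher by the adjusted p-value, where *Upf2* was lost without either GV library or without MII replicate 2, and removal of trends with transcript length and GC content left 4, namely *Upf1*, *Upf3b*, *Smg6* and *Smg8*.

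Of the UPF genes, *Upf1*, the helicase at the centre of the pathway, had 19.3 and 22.9 scaled TPM in the GV libraries and 73.4 and 58.7 in the MII libraries. Every MII value was thus well over every GV value. Its log2 fold change was 1.60 (SE, the standard error, 0.18, 95% interval 1.18 to 2.01, adjusted p = 0.00011 by limma), higher than that of 98.7% of the genes tested. *Upf3b*, whose product bridges UPF2 and the exon junction complex, had 26.0 and 27.2 scaled TPM in GV and 81.1 and 62.6 in MII oocytes. Its groups were likewise far apart, with a log2 fold change of 1.39 (SE 0.18, adjusted p = 0.00025 by limma). *Upf2*, the adaptor between UPF1 and UPF3, was at 14.6 and 14.2 scaled TPM in GV and at 23.3 and 25.8 in MII oocytes. Its groups did not overlap either, but the log2 fold change of 0.73 (SE 0.21, adjusted p = 0.017 by limma) stayed under the fold threshold. *Upf3a*, the paralogue of *Upf3b*, behaved differently: it had 3.77 and 6.17 scaled TPM in GV and 4.87 and 3.27 in MII oocytes. These groups overlapped, with a log2 fold change of -0.23 (95% interval -0.82 to 0.37, adjusted p = 0.47 by limma).

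In the kinase complex, *Smg1*, the kinase itself, had 1.68 and 2.40 scaled TPM in GV and 6.19 and 5.40 in MII oocytes. Both MII values exceeded both GV values at a low level, and the log2 fold change was 1.17 (SE 0.25, adjusted p = 0.0036 by limma). This call did not hold in every setting: without GV replicate 1 the log2 fold change was 0.998, just under the threshold, and it was 0.43 (adjusted p = 0.14 by limma) once the length and GC trends were removed. *Smg8* had 154 and 138 scaled TPM in MII oocytes, above both GV libraries. Its log2 fold change was 0.62 (SE 0.12, adjusted p = 0.0022 by limma), under the fold threshold. *Smg9*, the other regulatory partner of the kinase, was the only member with lower values in both MII libraries. It had 1.90 and 3.78 scaled TPM in GV oocytes and 0.447 and 0.339 in MII oocytes. The log2 fold change was -1.42 (SE 0.28, adjusted p = 0.0026 by limma) and -2.51 with a pseudocount of 0.1 in place of 1. *Smg9* has the highest GC content of the 9, and after removal of the length and GC trends its log2 fold change was -0.55 (adjusted p = 0.10 by limma), which ended the call.

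*Smg6* and *Smg5* act after the phosphorylation of UPF1. *Smg6*, the endonuclease, had 5.37 and 5.99 scaled TPM in GV and 12.2 and 12.2 in MII oocytes, the closest replicate agreement among the members in MII oocytes. Its log2 fold change of 0.98 (SE 0.16, adjusted p = 0.00075 by limma) fell just short of the fold threshold. *Smg5*, whose product binds phosphorylated UPF1, had 0.611 and 0.782 scaled TPM in GV and 0.821 and 1.38 in MII oocytes. The groups did not overlap, but the interval of the log2 fold change, -0.27 to 0.87, included 0 (adjusted p = 0.32 by limma).

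The direction of these values depends on what the libraries are scaled to. The 19 mitochondrially encoded genes listed in all 8 tables, of which 11 code for proteins, 2 for rRNA and 6 for tRNA, made up 0.623% and 0.648% of the deposited TPM of GV oocytes and 2.70% and 2.60% of those of MII oocytes. For the injected oocytes these shares were 2.05% and 1.75% with the wild type and 0.762% and 1.02% with the mutant. When libraries were scaled to their sum, the median of all genes in MII over GV moved to -1.74. All 9 members then had a log2 fold change under 0, from -0.54 for *Smg1* to -2.55 for *Smg9*. Relative to that median, 7 of the 9 were still above it, *Upf1* by 1.18 and *Upf3b* by 0.96 on the log2 scale, while *Upf3a* and *Smg9* were below it. The statements on higher and lower levels in this report are therefore relative to the other RNAs of the library, and whether the amount of mitochondrial RNA itself changed was not tested.

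The second comparison, between the mutant and the wild-type BTG4 in injected oocytes, is the contrast of the study and shares no library with the first. Here 8 of the 9 log2 fold changes were under 0, that is toward lower levels in *Btg4*tm oocytes, and *Smg9* was above 0. None of the 9 was called higher or lower in limma with the fold threshold, where 18.1% of all genes were called higher and 7.94% lower, and 6 had an unadjusted p-value under 0.05, as did 55.5% of all genes. Without the fold threshold, 6 were lower by the adjusted p-value, against 23.3% of all genes, and none was higher, against 26.2%. These were *Upf1*, *Upf2*, *Upf3b*, *Smg1*, *Smg6* and *Smg8*, the same 6 for which MII exceeded GV oocytes by that rule. In 8 genes both *Btg4*tm libraries lay below both *Btg4*wt libraries, as in 36.7% of all genes, and in 1 both lay above, as in 37.6%. Among the 8 is *Smg5*, which entered the test only through an MII and a *Btg4*wt library. The median log2 fold change was -0.68, and that of all genes 0.0077.

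*Upf1* had 69.4 and 72.0 scaled TPM with wild-type BTG4 and 30.6 and 42.0 with the mutant. Neither mutant library came near the wild-type range, and the log2 fold change was -0.96 (SE 0.18, 95% interval -1.37 to -0.55, adjusted p = 0.0026 by limma). *Upf3b* had 70.9 and 83.4 scaled TPM with the wild type and 42.4 and 57.6 with the mutant. The groups were apart, with a log2 fold change of -0.63 (SE 0.18, adjusted p = 0.021 by limma). *Upf2* had 23.2 and 18.8 scaled TPM with the wild type and 9.29 and 14.9 with the mutant. Its *Btg4*tm libraries differed from each other by 0.62 on the log2 scale, the widest spread among the members in that group, and the log2 fold change was -0.78 (adjusted p = 0.017 by limma). *Upf3a* went from 5.58 and 4.63 to 4.03 and 4.18 scaled TPM, a small separation with a log2 fold change of -0.25 (95% interval -0.85 to 0.34, adjusted p = 0.45 by limma).

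*Smg8* showed the smallest standard error of the members. It had 157 and 154 scaled TPM with the wild type and 90.5 and 85.3 with the mutant. The log2 fold change was -0.82 (SE 0.12, adjusted p = 0.00070 by limma), and the mutant values overlapped those of GV oocytes. *Smg1* had 6.44 and 3.99 scaled TPM in *Btg4*wt oocytes, an uneven pair, and 2.30 and 2.29 in *Btg4*tm oocytes. The log2 fold change was -0.89 (SE 0.25, adjusted p = 0.018 by limma), and -0.089 (adjusted p = 0.78 by limma) without the length and GC trends. *Smg9* had 1.01 and 1.20 scaled TPM with the wild type and 2.71 and 1.82 with the mutant. It was the only member with both mutant libraries above both wild-type ones, and its log2 fold change of 0.62 (95% interval -0.03 to 1.27, adjusted p = 0.10 by limma) did not pass the test. *Smg6* fell from 12.4 and 13.3 to 7.31 and 7.99 scaled TPM, a log2 fold change of -0.68 (SE 0.16, adjusted p = 0.0073 by limma). *Smg5* had 0.757 and 1.33 scaled TPM with the wild type and 0.481 and 0.697 with the mutant, with a log2 fold change of -0.35 (95% interval -0.92 to 0.22, adjusted p = 0.27 by limma).

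Scaled to the mitochondrial RNAs, the median of all genes in *Btg4*tm over *Btg4*wt moved to 0.88, and 8 of the 9 members had a log2 fold change above 0, all but *Smg1* at -0.04. Relative to that median 8 of the 9 stayed below it, *Upf1* by 0.77 and *Smg8* by 0.61, and *Smg9* was above it. Removal of the length and GC trends left 4 members lower by the adjusted p-value, namely *Upf1*, *Upf3a*, *Upf3b* and *Smg8*. The share of all genes by that rule in this setting is not given here. When 1 of the 8 libraries was left out, between 3 and 6 members were lower, the fewest without *Btg4*tm replicate 1, where *Upf1*, *Smg6* and *Smg8* were.

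**Figure D2:**
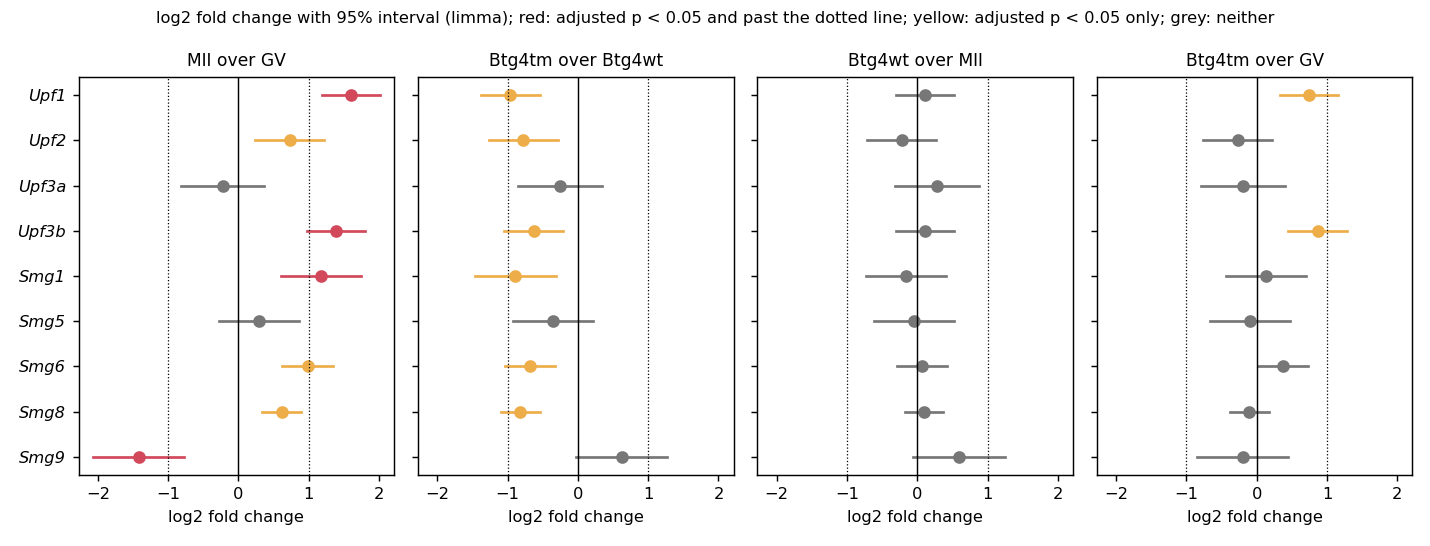
Log2 fold change on the log2(scaled TPM + 1) scale (horizontal axes) of each gene in 4 comparisons, with points for the limma estimates and bars for their 95% intervals. Of the 9 genes, 3 pass both thresholds upward and 1 downward in MII over GV, where 12.5% and 24% of all genes tested do. None does in *Btg4*tm over *Btg4*wt, where 18.1% of all genes pass upward and 7.94% downward. There, 6 are lower by the adjusted p-value alone, as are 23.3% of all genes. All intervals of *Btg4*wt over MII include 0.

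**Figure D3:**
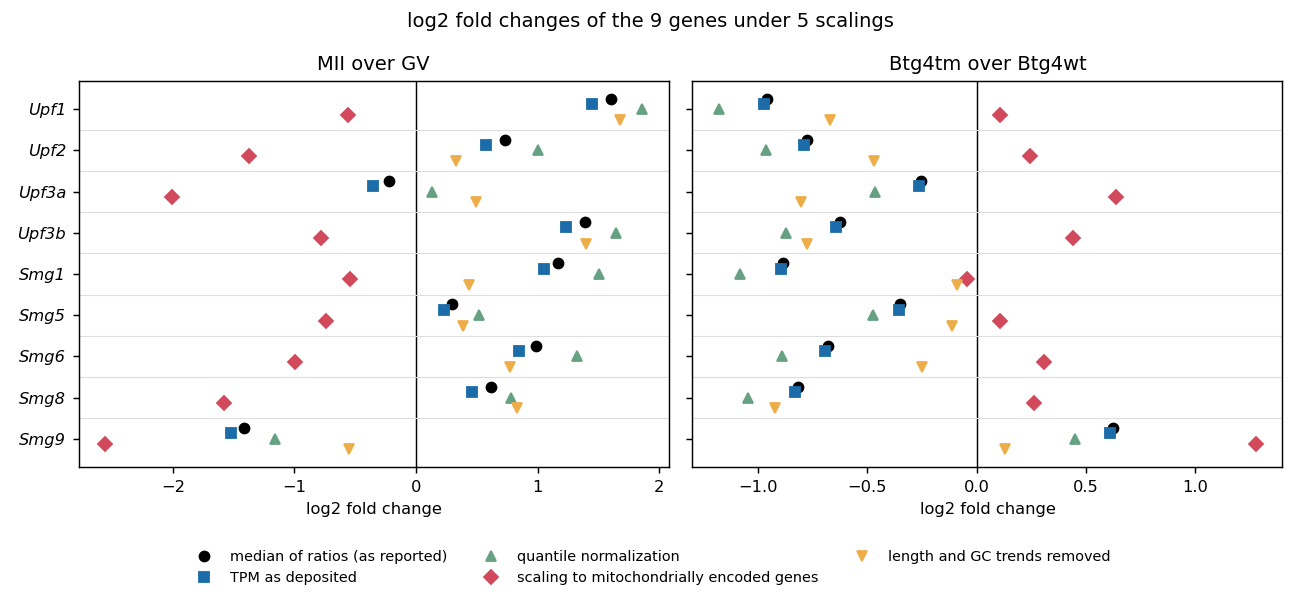
Log2 fold change (horizontal axes) of each gene in MII over GV and *Btg4*tm over *Btg4*wt under 5 scalings of the same TPM, one symbol per scaling. Scaling to the mitochondrially encoded genes moves all 9 genes below 0 in MII over GV and 8 of them above 0 in *Btg4*tm over *Btg4*wt, together with the median of all genes, which is -1.74 and 0.88.

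The other comparisons place the injected groups beside the uninjected ones, and each shares libraries with both comparisons above. Between *Btg4*wt and MII oocytes limma called 0 of the 9 members and 0 of the 13968 genes, with or without the fold threshold, so the share of all genes called was 0%. At an unadjusted p-value under 0.05 there were 0 members and 1655 genes. Log2 fold changes of the members lay between -0.22 for *Upf2* and 0.28 for *Upf3a*, apart from *Smg9* at 0.60 (95% interval -0.05 to 1.25, adjusted p = 0.46 by limma). The intervals leave room for differences in the members, such as -0.31 to 0.52 for *Upf1* and -0.18 to 0.37 for *Smg8*. Both *Btg4*wt libraries lay above both MII libraries for *Smg6* and *Smg9* and below them for *Upf2*, patterns found in 24.1% and 20.8% of all genes.

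Between *Btg4*tm and GV oocytes none of the 9 members was called with the fold threshold, where 1.02% of all genes were called higher and 1.02% lower, and 3 members had an unadjusted p-value under 0.05 in limma, as did 29.7% of all genes. Without that threshold *Upf3b* and *Upf1* were higher in *Btg4*tm oocytes and no member was lower, against 7.66% and 3.73% of all genes. *Upf3b* differed by 0.87 (adjusted p = 0.022 by limma) and *Upf1* by 0.74 (adjusted p = 0.037 by limma) on the log2 scale. Neither passed in the fit to only the 4 libraries of this comparison, in that without the variance trend, when scaled to the mitochondrial RNAs, or when either GV library or *Btg4*tm replicate 2 was left out. *Upf1* alone also failed to pass with TPM as deposited and without either *Btg4*wt library. Both *Btg4*tm libraries lay above both GV libraries for these genes and for *Smg6*, a pattern of 25.3% of all genes, and the remaining members overlapped, while 34.2% of all genes lay below. *Smg6* had a log2 fold change of 0.37 (adjusted p = 0.16 by limma), and the other members lay between -0.27 and 0.13.

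Across the comparisons that share no library, 8 of the 9 members (88.9%) had log2 fold changes of opposite sign in MII over GV and *Btg4*tm over *Btg4*wt. The same held for 82.8% of all genes tested, so the share among the members was close to the background. The exception was *Upf3a*, with values under 0 in both. *Smg5* counts among the 8, although it entered the test only through an MII and a *Btg4*wt library.

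The summed scaled TPM of the 9 mRNAs amounted to 159 and 187 at the GV stage and to 356 and 307 at MII. With injected wild-type BTG4 it was 347 and 352, with the mutant 190 and 217, and *Smg8* contributed between 39.4% and 55.5% of it. Ratios between members within a library do not change when the library is divided by a common factor, but they do under quantile normalization or removal of length and GC trends. The ratio of *Upf3b* to its paralogue *Upf3a* was 6.91 and 4.40 at the GV stage and 16.7 and 19.2 at MII, and it was 12.7 and 18.0 with injected wild-type BTG4 against 10.5 and 13.8 with the mutant. All 6 libraries of MII-stage oocytes thus exceeded both GV libraries, and the ranges of *Btg4*wt and *Btg4*tm overlapped. The ratio of *Smg8* to *Smg9*, the partners of the kinase, was 45.4 and 27.5 at the GV stage and 344 and 406 at MII, and it was 156 and 128 with wild-type BTG4 against 33.4 and 46.7 with the mutant. For this pair the *Btg4*tm and GV libraries overlapped, and *Btg4*wt libraries lay between them and MII oocytes. These ratios rest on *Smg9* values near 1 TPM or below in *Btg4*wt and MII oocytes. *Upf1* to *Upf2* stood at 1.32 and 1.61 at the GV stage, 3.15 and 2.28 at MII, 2.99 and 3.84 with wild-type BTG4 and 3.30 and 2.83 with the mutant. Here *Btg4*tm oocytes were with the other MII-stage oocytes and not with GV oocytes. *Upf3b* to *Upf1* stayed within 1.02 to 1.38 over all 8 libraries.

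**Figure D4:**
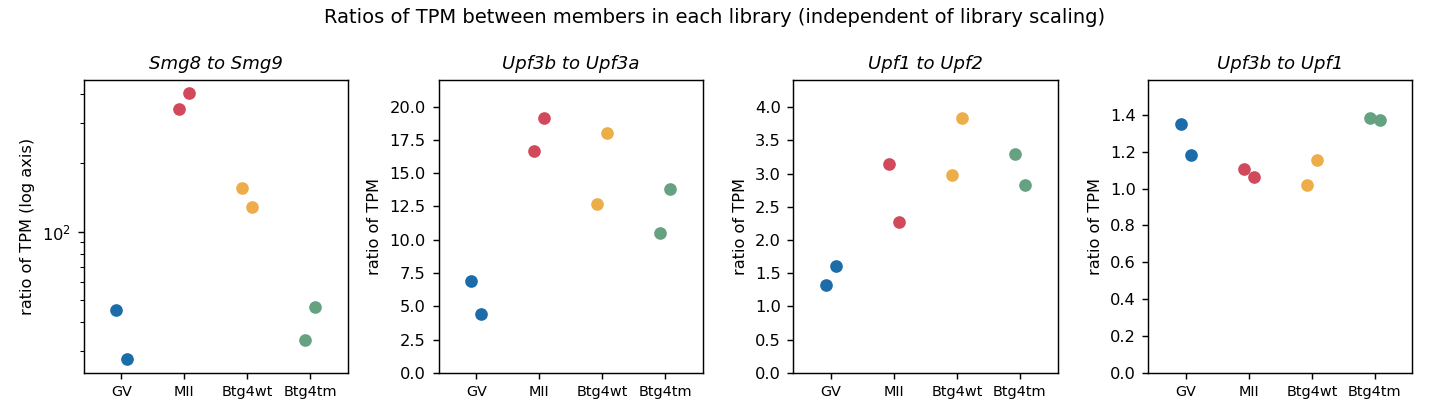
Ratio of TPM between pairs of the genes in each library (vertical axes, logarithmic for *Smg8* to *Smg9* and from 0 for the others), by group, with a point per library. *Smg8* to *Smg9* is 344 and 406 in MII but 33.4 and 46.7 in *Btg4*tm oocytes, and *Upf3b* to *Upf1* stays between 1.02 and 1.38.

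For the members called in MII over GV, the mRNAs with the most similar pattern were sought among the tested genes whose scaled TPM averaged 10 or more, 6881 or 6882 apart from the member itself. Pearson's r was computed on log2(scaled TPM + 1) over the 8 libraries, which share their groups, and is given as a description. *Upf1* was closest to *Ggct* (r = 0.995) and *Ccdc191* (r = 0.994), *Upf3b* to *Rsu1* (r = 0.998) and *Snrpf* (r = 0.993). *Smg1* was closest to *Sema4d* (r = 0.995) and *Rex2* (r = 0.988), *Smg9* to *Sart1* (r = 0.989) and *Xrcc1* (r = 0.985). No gene was named for more than 1 member.

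The exon junction complex, which is deposited on spliced mRNA and marks the sites that UPF3B reads, contained changes in both directions. Of 10 genes of the complex and its periphery, 5 were called higher and 3 lower in MII than in GV oocytes, where 12.5% and 24% of all genes were. The lower ones included 2 of its core subunits, the helicase *Eif4a3* (mean 259 ± 47.4 and 75.2 ± 6.32 scaled TPM, SD, n = 2) and *Rbm8a* (86.8 ± 6.88 and 33.9 ± 4.53), and the peripheral factor *Sap18* (290.0 ± 45.9 and 62.9 ± 0.368). Their log2 fold changes were -1.76, -1.34 and -2.18, with adjusted p from 1.12e-05 to 6.01e-05 by limma. The core subunit *Magoh* was higher instead, with 489 ± 10.2 scaled TPM in GV and 1563 ± 59.4 in MII oocytes (log2 fold change 1.68). It was joined by the peripheral factors *Pnn* at 1.33 and *Rnps1* at 1.23, and by *Acin1* at 1.13 and *Magohb* at 1.10. In *Btg4*tm over *Btg4*wt, *Sap18*, *Rbm8a* and *Eif4a3* were called higher at 1.70, 1.59 and 1.31, *Pnn* was called lower at -1.52, and *Magoh* was at -0.75 (adjusted p = 0.0042 by limma). Of all genes, 18.1% were called higher and 7.94% lower in that comparison. Scaled to the mitochondrial RNAs, all 10 genes of this list had values under 0 in MII over GV, including the 5 called higher before. In *Btg4*tm over *Btg4*wt, *Magoh* turned to higher values and *Pnn* no longer passed the test (-0.46). The signs of *Sap18*, *Rbm8a* and *Eif4a3* held in both comparisons. With length and GC trends removed, *Eif4a3* was at -0.69 in MII over GV and at 0.45 for mutant over wild type, which ended both calls. In that setting 5 of the 10 were called higher and 2 lower in MII over GV, and 2 higher and 3 lower in *Btg4*tm over *Btg4*wt. The share of all genes in that setting is not given here.

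Among 16 other NMD factors, 1 was called lower and 0 higher in MII over GV by limma, where 24% and 12.5% of all genes were, and 9 had an unadjusted p-value under 0.05, as did 66.4% of all genes. The gene called was *Ruvbl2*, an ATPase that works with *Ruvbl1* in assembling the SMG1 kinase and other complexes. It had 198 ± 0.0308 scaled TPM in GV and 20.8 ± 1.42 in MII oocytes (SD, n = 2), with a log2 fold change of -3.20 (SE 0.11, adjusted p = 4.78e-07 by limma). It was also called higher in *Btg4*tm over *Btg4*wt, with 31.8 ± 1.57 scaled TPM for the wild type, 150 ± 4.27 for the mutant and a log2 fold change of 2.2 (SE 0.11, adjusted p = 2.49e-06 by limma). Both signs held in all 5 scalings. *Ruvbl1* had values in the same directions, -0.73 and 0.66, without passing the fold threshold. In *Btg4*tm over *Btg4*wt, *Aqr*, a helicase of the spliceosome, and *Stau1*, which binds double-stranded RNA and recruits UPF1 in a related decay pathway, were called lower at -1.01 each, barely past the threshold. That comparison thus had 1 of the 16 called higher and 2 lower, where 18.1% and 7.94% of all genes were. Scaled to the mitochondrial RNAs, neither *Aqr* nor *Stau1* passed the test, at -0.10 and 0.07.

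Of 15 RNAs known from other systems as NMD substrates, 14 were tested, and *Snhg12* was listed in no table. In MII over GV, 1 was called higher and 5 lower, and in *Btg4*tm over *Btg4*wt 3 were called higher and 0 lower by limma, with 6 at an unadjusted p-value under 0.05 in the latter, as were 55.5% of all genes. Over all genes 12.5% and 24% were called in the former, and 18.1% and 7.94% in the latter. The largest falls were in transcription factors of the stress response. *Ddit3* had 113 ± 0.306 scaled TPM in GV and 7.91 ± 1.01 in MII oocytes, a log2 fold change of -3.68, and its log2 fold change was 3.64 in *Btg4*tm over *Btg4*wt, where the wild type stood at 5.49 ± 0.931 (SD, n = 2). *Atf4* was at -2.45 and 1.34 and *Atf3* at -1.98 and 0.95 in these comparisons, the last under the fold threshold. The noncoding host genes *Snhg15* and *Snhg1* were also called lower in MII over GV, and *Zfas1*, of the same kind, was called higher in *Btg4*tm over *Btg4*wt at 1.22. These 3 calls rest on low levels. *Snhg15* had 4.09 and 3.87 scaled TPM in GV and 0.057 and 1.78 in MII oocytes, an uneven pair. *Snhg1* had 2.81 and 3.35 in GV and 0.20 and 1.16 in MII oocytes. *Zfas1* had 0.36 and 0.39 with the wild type and 1.41 and 3.2 with the mutant. The growth arrest gene *Gadd45a* was the single one called higher in MII over GV, at 1.11, with 0.936 ± 0.203 scaled TPM in GV and 3.18 ± 0.160 in MII oocytes (SD, n = 2), and *Gas5*, often used as a readout of NMD, was at 0.45 and -0.06. These lists mix genes that respond to many other signals, and no list was tested as a whole. Scaled to the mitochondrial RNAs, all 14 had values under 0 in MII over GV, *Gadd45a* among them at -0.28. With length and GC trends removed, the calls of *Snhg15* in MII over GV (-0.32) and of *Atf4* (0.60) and *Zfas1* (0.94) in *Btg4*tm over *Btg4*wt ended, as did that of *Aqr* (-0.76). Other calls appeared in that setting. Of the 14, 2 were called higher and 4 lower in MII over GV, and 1 higher and 2 lower in *Btg4*tm over *Btg4*wt. The share of all genes in that setting is not given here.

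**Figure D5:**
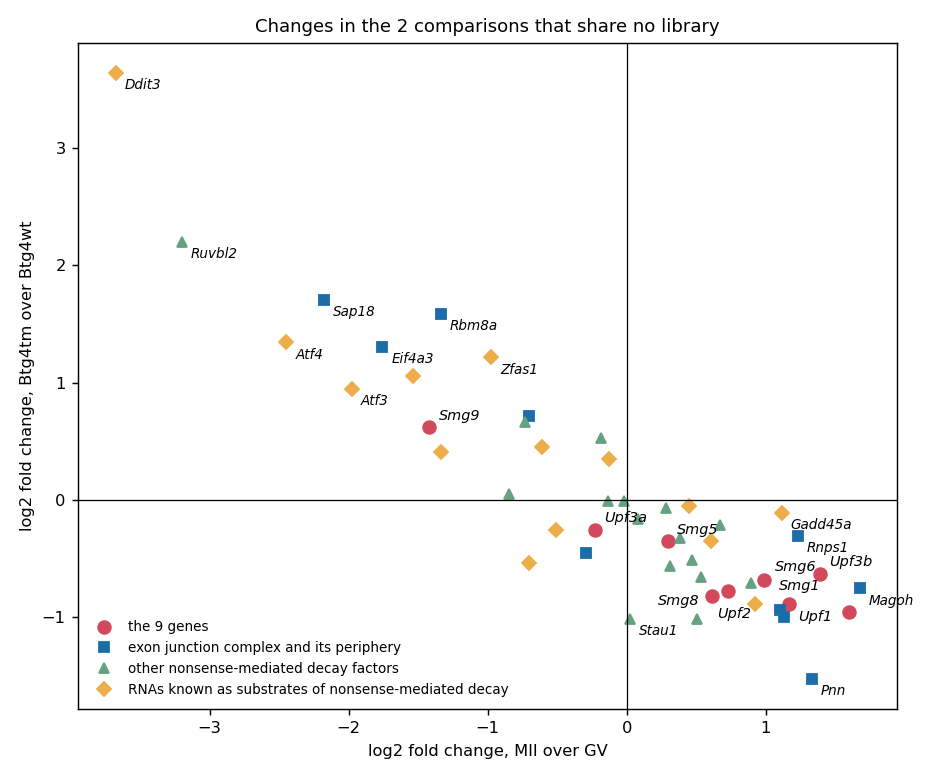
Log2 fold change in MII over GV (horizontal) against that in *Btg4*tm over *Btg4*wt (vertical), comparisons without a common library, for the 9 genes (circles) and the tested genes of 3 related lists. *Ruvbl2* (-3.20 and 2.2) and *Ddit3* (-3.68 and 3.64) lie at the upper left, most of the 9 genes at the lower right and *Smg9* (-1.42 and 0.62) at the upper left, with opposite signs in 82.8% of all genes tested; scaling to the mitochondrial RNAs shifts all points to the left and upward.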

How the data were processed

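The authors trimmed the reads with Trim Galore 0.6.10, aligned them to GRCm38 with HISAT2 2.2.0, counted them on exons with featureCounts 2.0.6 without regard to strand and deposited TPM per gene symbol for 8 Smart-seq2 libraries. The gene lengths behind the TPM and the filter on listed genes are not given in the sources used here, and the read counts were not used.

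Genes in all 8 tables were scaled by median-of-ratios factors, and log2(scaled TPM + 1) was analysed. The 13968 genes with at least 1 TPM as deposited in at least 2 libraries were fitted with limma 3.58.1 in R 4.3.3 (lmFit, contrasts, eBayes with trend) with 1 coefficient per group, and the spread was shared by all 8 libraries. Since TPM keep no depth, the precision rests on 2 libraries per group. A gene was called in any of the 4 comparisons if its absolute log2 fold change exceeded 1 with a p-value under 0.05 after Benjamini-Hochberg adjustment. The sample labels gave the groups and replicate numbers.

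The procedure was tested on simulated data for *Btg4*tm over *Btg4*wt with the levels and spreads of these 13968 genes. Of 200 genes changed by 2 on the log2 scale, 180 were recovered, 3 unchanged genes were called, and data without change gave 0 calls. The 200 were drawn from genes with a mean log2 value over 2, and the groups otherwise had equal means. Smaller changes, such as those of the members in this comparison, and genes of lower level were not covered.

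The members and lists were chosen with earlier results of these data known. All 9 members are named. From each of 3 related lists, the 3 largest rises and 3 largest falls among called genes in MII over GV and *Btg4*tm over *Btg4*wt are named, with the listed genes found in one set of tables only. A factor that the rule also named was left out of its list and is not reported here. *Ruvbl1*, *Gas5*, *Snhg1*, *Snhg15*, *Acin1* and *Magohb* were added after their values were seen. The genes most like a member are the 2 with the highest correlation for each member called. Positions, lengths and sequences came from GENCODE M21 on GRCm38, an earlier release than the authors' vM25. No protein sequences were used here.

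The alternatives were other scalings (quantiles, mitochondrially encoded genes, or none beyond the deposited TPM), a pseudocount of 0.1, filters at 0 or 5 TPM, fits without the variance trend, with a replicate block or to just the 4 libraries compared, calls without a fold threshold, removal of loess trends (span 0.3) on transcript length and GC content, known for 97.8% of genes tested, and leaving out each library in turn, which assumes that the lone library of its group varies like the other groups.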

Additional observations from a re-analysis of the deposited data

How the results depend on the processing

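The precision rests on 2 libraries per group, and depth is unknown. TPM as deposited, no filter and eBayes without trend kept every count of members called with both thresholds. Scaled to the mitochondrially encoded genes, MII over GV had 0 members called higher, 4 lower and 11410 genes called, with log2 fold changes of -0.56 for *Upf1*, -1.38 for *Upf2*, -0.78 for *Upf3b*, -0.54 for *Smg1*, -0.74 for *Smg5*, -0.99 for *Smg6* and -1.58 for *Smg8*. *Btg4*tm over *Btg4*wt had 1 member called higher and 6158 genes called, with 0.11 for *Upf1*, 0.24 for *Upf2*, 0.64 for *Upf3a*, 0.44 for *Upf3b*, 0.10 for *Smg5*, 0.31 for *Smg6* and 0.26 for *Smg8*. *Btg4*wt over MII had 69 genes called, with 0.25 for *Upf2*, 0.23 for *Smg1* and 0.16 for *Smg5*, and *Btg4*tm over GV had 3010, with -0.35 for *Smg1* and -0.19 for *Smg6*. Of the calls, the higher ones went from 34.3% to 0.0614% in MII over GV, and from 69.6% to 98.9% between the injected groups.

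Quantile normalization called 5 members higher in MII over GV, put *Upf3a* at 0.13 there, and called 3 lower in *Btg4*tm over *Btg4*wt. It made 53.4% and 53.9% of the calls of these comparisons higher ones. Removing length and GC trends, with or without the replicate block, called 0 members lower in MII over GV, put *Upf3a* at 0.50 there, *Upf1* at -0.0354 in *Btg4*wt over MII, and *Smg5* at 0.11 and *Smg9* at 0.0587 in *Btg4*tm over GV. It made 48.6% of the calls in MII over GV and 56.6% of those in *Btg4*tm over *Btg4*wt higher ones. The filter at 5 TPM removed *Smg5* and *Smg9*, so 0 members were called lower in MII over GV. A pseudocount of 0.1 called 1 member lower in *Btg4*tm over *Btg4*wt. No share of all genes is given beside the member counts of quantile normalization, trend removal or this pseudocount. Those counts show how member calls moved and make no comparison with other genes. With no minimum fold change, 6 members were higher in MII over GV, as were 4168 genes, 29.8% of those tested. In *Btg4*tm over *Btg4*wt 6 were lower, as were 3251 genes (23.3%). In *Btg4*tm over GV 2 were higher, as were 1070 genes (7.66%). Genes called in either direction numbered 8743, 6917 and 1591 in these comparisons. Fitting only the 4 libraries of *Btg4*tm over GV called 183 genes, against 285.

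Leaving out 1 library at a time gave 2 to 4 members called higher in MII over GV, 0 to 2 called lower between the injected groups, and 0 to 1 called higher in *Btg4*tm over GV, where 83 to 352 genes were called, the fewest without GV replicate 2. Values of members that were not called crossed 0. In MII over GV *Upf3a* ran from -0.52 to 0.0689. In *Btg4*wt over MII *Upf1* ran from -0.0542 to 0.26, *Upf3b* from -0.0759 to 0.29, *Smg1* from -0.44 to 0.13 and *Smg5* from -0.24 to 0.16. In *Btg4*tm over GV *Smg1* ran from -0.0442 to 0.30, *Upf3a* from -0.49 to 0.10, *Smg8* from -0.24 to 0.0268, *Smg9* from -0.56 to 0.16, *Upf2* from -0.58 to 0.0415 and *Smg5* from -0.19 to 0.0023. The causes of these changes were not tested.

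Replicate numbers were shared between groups, but the differences between replicates 1 and 2 correlated at only -0.0539 to 0.0555 between groups, so the numbers were not taken to pair the samples. With the replicate block, 1 gene was called in *Btg4*wt over MII, also after removal of length and GC trends. The block alone changed no count of members called with both thresholds.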
